A study of Arabidopsis thaliana with 18 samples.

Results

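Transcripts of the chloroplast and mitochondrial genomes of Arabidopsis thaliana were followed through phosphate (Pi) starvation and recovery on Affymetrix ATH1 arrays, which report each transcript by a probe set, a group of short probes. Of 22810 probe sets, 89 were taken. These were the probe sets that the platform annotation gives to exactly 1 gene with an organelle-style symbol in lower case (beginning with psa, psb, pet, ndh, rpo, rpl, rps, rbc, atp, ycf, acc, clp, mat, nad, cox, cob, ccb or ccm). They stood for 82 genes, with 67 probe sets for 67 chloroplast genes and 22 probe sets for 15 mitochondrial genes, because nad1 had 7 probe sets and nad5 had 2. The rule uses no measured value, but it was set with earlier results of these data known. The mitochondrial genes covered were of complex I, complex IV, cytochrome c maturation and the maturase matR, and no member encoded a mitochondrial ribosomal protein, cytochrome b or an ATP synthase subunit.

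All plants were wild-type Col-0 grown in aerated hydroponic medium, with roots and shoots collected separately. They spent 20 days in full medium before treatment. Pi-replete plants then had 10 days without Pi followed by 3 days in full medium and were 33 days old at collection. Pi-starved plants had 10 days without Pi and Pi-mock plants 10 days in full medium, and both were 30 days old. The recovery thus spans 3 days of age as well as the return of Pi, and these cannot be told apart. Each organ and condition had 3 arrays, which the labels call biological replicates without saying what separates them, so p-values measure the spread between these arrays.

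Chloroplasts and mitochondria keep small genomes of bacterial origin. In plants the chloroplast genome encodes core subunits of the photosystems, the cytochrome b6f complex, the NADH dehydrogenase-like (NDH) complex and ATP synthase, the large subunit of Rubisco, and part of the machinery that expresses them, namely an RNA polymerase of bacterial type and ribosomal proteins. Most chloroplast genes are transcribed in groups and the long transcripts are then cut and trimmed, so neighbours can end with unequal levels. The mitochondrial genome encodes subunits of the respiratory chain and factors that attach haem to cytochrome c, and phage-type polymerases encoded in the nucleus transcribe it. Organelle transcripts carry no stable poly(A) tail, and the priming used to label these samples was not given in the sources used here, so levels of the 2 genomes are compared below only as differences between groups within a probe set.

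The deposited values were log2 expression values with array medians of 5.88 to 5.98, and replicate arrays of a group correlated at 0.9884 to 0.9965. Differences are log2 differences from a limma fit of all 18 arrays, given with their standard error (SE) from that fit. A probe set is called higher or lower at a Benjamini-Hochberg adjusted p at or under 0.001 over all probe sets, and counts at the looser threshold of 0.05 are named as such. Organ labels matched their markers. PRK and RCA, nuclear genes of the Calvin cycle, were lower in roots of mock plants by log2 differences of -8.86 and -7.12, and the root hair expansin gene EXPA7 was higher by 5.05. The root array replete 1 and the starved arrays numbered 3 stood apart from the other arrays of their groups, and values without them are given for some of the results that rest on them.

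Chloroplast transcripts were far lower in roots than in shoots. In mock plants, 62 of 67 chloroplast probe sets were lower in roots than in shoots and 0 were higher, with a median difference of -2.81 and a range of -5.93 to -0.12. Over the whole array 18.3% were lower and 24.4% higher in roots, with a median of 0.06. Of the 22 mitochondrial probe sets, 6 were lower in roots and 0 were higher, with a median of -0.35 and a range of -0.89 to 0.73. In whole organs, fewer chloroplast-bearing cells, fewer plastids or genome copies per cell and less RNA per plastid cannot be told apart.

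**Figure D1:**
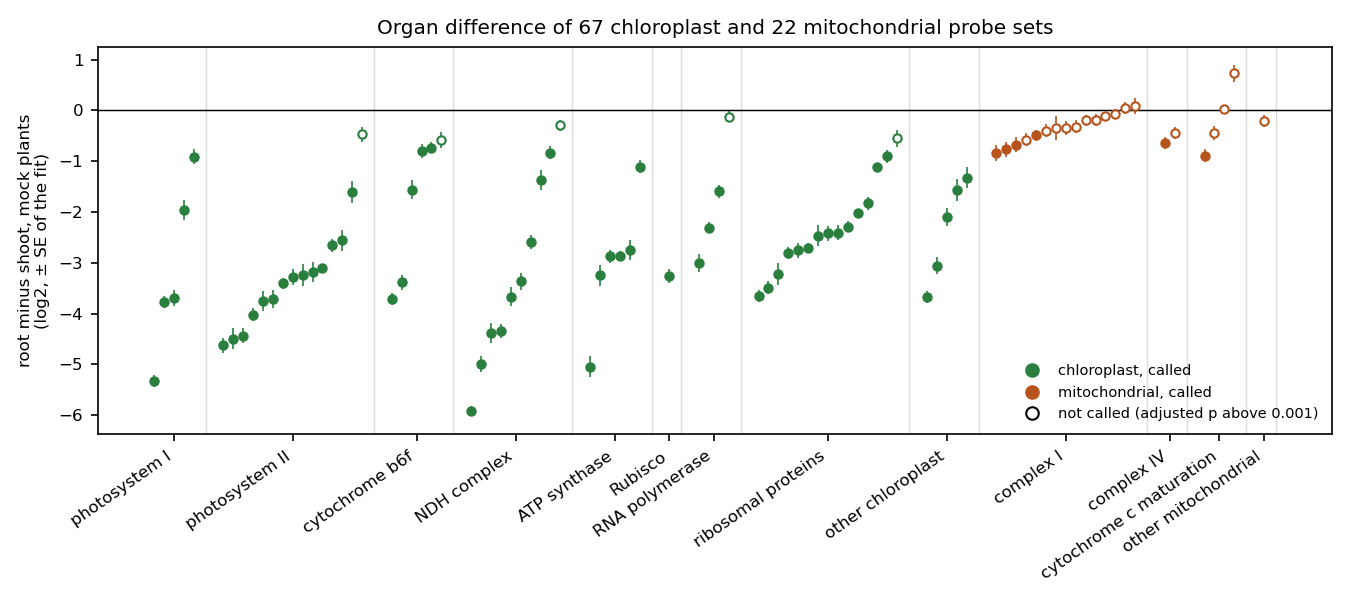
Root minus shoot difference in mock plants (log2, vertical axis) of each of the 67 chloroplast (green) and 22 mitochondrial (brown) probe sets, sorted within functional groups along the horizontal axis. Bars are the SE of the fit and open points were not called. The chloroplast points reach -5.93, while the mitochondrial points lie between -0.89 and 0.73.

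Among photosystem I genes, all 5 were lower in roots, with a median of -3.69. PsaB, a reaction centre protein, is encoded by psaB, which had log2 values of 6.39, 6.19 and 6.30 in mock roots, against 11.80, 11.55 and 11.52 in mock shoots (difference -5.33, SE 0.11, adjusted p 8.01e-17, a 40.2-fold difference). Of 15 photosystem II genes, 14 were lower, with a median of -3.28. The gene of the D1 reaction centre protein, psbA, had 4.49, 3.54 and 3.86 in mock roots, against 8.68, 8.40 and 8.29 in mock shoots (difference -4.49, SE 0.20). For both genes every root array lay below every shoot array. The exception in photosystem II was psbT, a small subunit, with a difference of -0.47.

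The NDH complex, which passes electrons back to the plastoquinone pool around photosystem I, had 10 measured genes. Of these, 9 were lower in roots, with a median of -3.52. The subunit gene ndhJ had 2.99, 3.04 and 3.15 in mock roots, against 9.16, 9.04 and 8.76 in mock shoots (difference -5.93, SE 0.10, adjusted p 1e-17). Its neighbour ndhK followed with -4.99 (SE 0.17). Root values of ndhJ lay below the lower quartile of all probe sets on those arrays and were not shown to be above background, so no fold is given. All 6 ATP synthase genes were lower in roots (median -2.87), led by atpA, the alpha subunit, at -5.05 (SE 0.21). The gene of the large subunit of Rubisco, rbcL, differed by -3.26 (SE 0.13). Of 6 cytochrome b6f genes, 5 were lower with a median of -1.18, and petN, a small subunit, differed by -0.58 without passing the threshold.

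Genes of the expression machinery were lower in roots as well. For the 43 genes of the photosynthetic complexes the median was -3.25 with 40 called, and for the 19 genes of the RNA polymerase and the ribosome it was -2.41 with 17 called. All 15 ribosomal protein genes had negative differences (median -2.42), of which 14 were called, and rps15 at -0.55 was not. Of the 4 polymerase genes, 3 were lower, and rpoB, the beta subunit, differed by -0.12 with root values of 2.35, 2.29 and 2.42 and shoot values of 2.38, 2.66 and 2.39. Those values overlapped, and rpoB was dim in both organs. The 5 remaining chloroplast genes (the maturase matK, accD of fatty acid synthesis, the protease subunit clpP, and the photosystem I assembly factors ycf3 and ycf4) were all lower, with a median of -2.11.

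The brightest member of each group, by its mean over the 18 arrays, was also lower in roots for the chloroplast. The differences were -5.33 for psaB, -2.56 for psbM (photosystem II), -3.72 for petB (cytochrome b6), -2.59 for ndhI, -2.87 for atpE (the epsilon subunit of ATP synthase), -3.49 for rps4, -2.31 for rpoA and -2.11 for clpP. Those members had root values well above the lower quartile.

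Of the 67 chloroplast probe sets, 7 had a mean below the lower quartile of the arrays in mock shoots (atpI, ndhF, petG, psaC, psbT, rpl20 and rpoB). Of these, 4 were called lower in roots, with a median of -0.73. The 13 between the lower quartile and 6 had a median of -1.36 with 11 called. All 20 between 6 and 9 were called (median -3.52), and so were all 27 at 9 or more (median -3.18). The level in mock shoots is itself a term of this difference, so no relation between level and difference is drawn from these values. Of the mitochondrial probe sets, 6 of 22 lay below the lower quartile in mock shoots. In mock roots, 20 of the 67 chloroplast and 8 of the 22 mitochondrial probe sets did.

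The mitochondrial differences between organs were small in both directions. The haem attachment gene ccb452 (ccmFC in RefSeq) had 4.52, 4.73 and 4.52 in mock roots, against 5.48, 5.43 and 5.53 in mock shoots (difference -0.89, SE 0.13, adjusted p 1.09e-05). The core subunit gene of complex IV, cox1, had 5.32, 5.17 and 5.28 in mock roots, against 5.89, 5.84 and 5.94 in mock shoots (difference -0.63, SE 0.12, adjusted p 0.000149). The root arrays lay below the shoot arrays for both genes. The brightest complex I member, nad4, differed by -0.32 (adjusted p 0.0321). The complex I genes nad9 (-0.67) and nad4L (-0.49) and a pair of nad1 probe sets were also lower. The largest positive difference belonged to ccb382 (ccmFN1 in RefSeq), also a haem attachment gene, with 8.49, 8.06 and 8.27 in mock roots, against 7.45, 7.54 and 7.63 in mock shoots (difference 0.73, SE 0.17). Its values did not overlap between organs, and its adjusted p of 0.00109 just missed the threshold.

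The 7 probe sets of nad1 did not behave alike. This complex I gene is split in plant mitochondria into pieces that are transcribed apart and joined by splicing, and the annotation does not say which piece each probe set reads. Their differences between organs were 0.08, -0.83, -0.11, -0.57, -0.77, -0.07 and 0.05, in the order of their identifiers, and those at -0.83 (adjusted p 0.00021) and -0.77 (adjusted p 0.000162) were called. Of the 7, 3 were dim in mock shoots. The 2 probe sets of nad5, a further complex I gene, differed by -0.34 and -0.40.

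The gap between organs was present in every condition. The median chloroplast difference was -2.70 in replete plants, -2.98 in starved plants and -2.81 in mock plants, and in each condition 66 of the 67 genes had all 3 root arrays below all 3 shoot arrays. Among all probe sets that pattern held for 29% in replete, 26% in starved and 27.1% in mock plants. The mitochondrial medians were -0.25, -0.30 and -0.35 in the same order, and 11, 12 and 13 of 22 probe sets had root arrays below shoot arrays.

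Each array was also summarised by the median, over the genes of a genome, of the log2 value minus that gene's mean over all arrays. For the chloroplast this median averaged -1.25 in replete roots, -1.42 in starved roots and -1.48 in mock roots, against 1.40 in replete shoots, 1.50 in starved shoots and 1.34 in mock shoots. The root arrays lay between -1.61 and -1.21 and the shoot arrays between 1.26 and 1.57. For the mitochondrion it averaged -0.11, -0.09 and -0.25 in replete, starved and mock roots, against 0.14, 0.18 and 0.09 in the same conditions of shoots. The organs were far apart for the chloroplast, and the conditions within an organ lay close together.

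**Figure D2:**
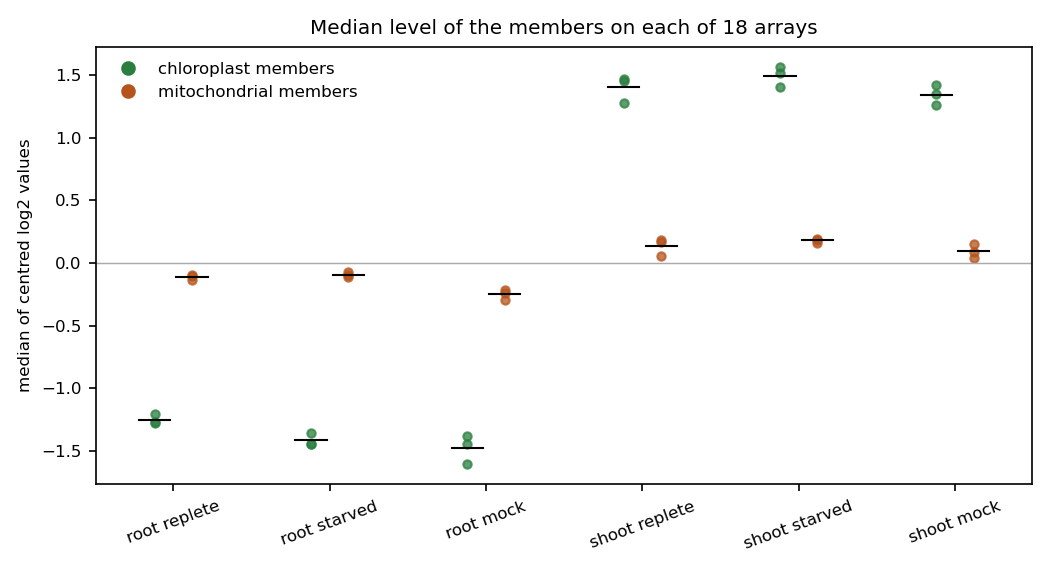
Median over the chloroplast (green) and mitochondrial (brown) members of the log2 value minus each probe set's mean over 18 arrays (vertical axis), for the 3 arrays of each group (horizontal axis), with the group mean as a bar. Chloroplast medians are near -1.4 in roots and 1.4 in shoots, and mitochondrial medians stay between -0.30 and 0.19.

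Nuclear genes for proteins that work beside these products were read from 12 lists of 85 genes, of which 23 had a probe set named for that gene alone. All 10 measured genes of the chloroplast lists were lower in mock roots than in mock shoots, with a median of -7.39 and a range of -8.32 (PSAE-1, photosystem I) to -1.95 (AT1G09130, a subunit of the plastid Clp protease). The median of the chloroplast-encoded genes was -2.81 in the same contrast, with 20 of 67 below the lower quartile in mock roots. The priming used for labelling is unknown and organelle transcripts lack a stable poly(A) tail, so the medians are not ranked against each other. Of 12 nuclear genes of the mitochondrial lists, 6 were higher in roots, among them the complex IV gene COX5B1 (0.74), and 1 was lower, CYTC-2 of cytochrome c (-0.99), with a median of 0.31. The lists on the Rubisco small subunit, alternative oxidase and plastid sigma factors had 0 measured genes, and the polymerase list had 1.

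Starvation left the organelle transcripts without a called change. In roots, 0 of 67 chloroplast and 0 of 22 mitochondrial probe sets passed the limma threshold in starved against mock plants, where 2.26% of all probe sets did. In mock and in starved roots alike, 20 of the chloroplast and 8 of the mitochondrial probe sets had means below the lower quartile of the arrays. A change in those dim probe sets could be missed. At an unadjusted p under 0.05 there were 17 and 7, against 23.1% of all probe sets. The chloroplast median was 0.11 and the mitochondrial median was 0.18, against 0.03 for all probe sets. When arrays were centred on spike-in controls these medians became -0.02, 0.05 and -0.10, in the same order. At an adjusted p at or under 0.05, which 9.73% of all probe sets reached, 3 chloroplast genes were higher in starved roots, 1 was lower and 0 mitochondrial probe sets passed.

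The smallest p in the root response belonged to matK, an intron maturase, with 5.76, 5.84 and 6.01 in starved roots, against 5.50, 5.29 and 5.30 in mock roots (difference 0.51, SE 0.12, adjusted p 0.01). In replete roots it had 5.87, 5.77 and 5.95, so all starved and replete arrays lay above the mock arrays. The gene accD, a subunit of the acetyl-CoA carboxylase that starts fatty acid synthesis in plastids, had 5.08, 4.60 and 4.54 in starved roots, against 3.69, 3.59 and 4.45 in mock roots (difference 0.83, SE 0.22, adjusted p 0.0206). One mock array lay just below the starved arrays. The polymerase genes moved in opposite directions, rpoC2 at 0.42 (adjusted p 0.0464) and rpoA at -0.39 (adjusted p 0.0287). Among mitochondrial probe sets the smallest p were those of matR (0.35, adjusted p 0.0794) and cox1 (0.34, adjusted p 0.0817).

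In shoots the response of starved against mock plants was 0 of 67 chloroplast and 0 of 22 mitochondrial probe sets by limma, with 0.399% of all probe sets called. At an unadjusted p under 0.05 there were 17 and 1, against 17.2% of all probe sets. The chloroplast differences leaned to 1 side, with 57 of 67 above 0 and a median of 0.18, while 15 of 22 mitochondrial differences were above 0 (median 0.10) and the median of all probe sets was 0. The genes share arrays, and the chloroplast median stayed between 0.09 and 0.22 under the 3 other scalings. At the threshold of 0.05, which 3.87% of all probe sets reached, only rps14 passed. This ribosomal protein gene had 4.27, 4.25 and 3.87 in starved shoots, against 3.43, 3.73 and 3.55 in mock shoots (difference 0.56, SE 0.13, adjusted p 0.0229). Next was psbT, at 0.53 (adjusted p 0.0532).

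In roots, replete against starved, 2 of 67 chloroplast genes rose and 0 fell, with 5.12% of all probe sets called, and 0 of 22 mitochondrial probe sets were called. At an unadjusted p under 0.05 there were 22 and 5, against 37.9% of all probe sets. The first gene was rpoA, the alpha subunit of the plastid RNA polymerase, with 9.50, 9.18 and 9.25 in replete roots, against 8.73, 8.67 and 8.49 in starved roots (difference 0.68, SE 0.11, adjusted p 0.000256, 1.60-fold). Mock roots had 8.89, 9.16 and 9.0. The second was rpl14, a ribosomal protein gene of the same transcription unit, with 8.61, 8.45 and 8.57 in replete roots, against 8.04, 8.13 and 7.98 in starved roots (difference 0.49, SE 0.09, adjusted p 0.000843, 1.41-fold). Its mock values of 8.02, 8.15 and 8.13 overlapped with those of starved roots.

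Both calls lay near the threshold. Leaving out replete 1, replete 3, starved 2 or starved 3 of the root arrays took rpoA to an adjusted p of 0.00121, 0.00105, 0.00129 and 0.00108, with differences of 0.59 to 0.71. For rpl14, 17 of the 18 fits that left out an array gave an adjusted p above 0.001, the highest 0.00501 without root replete 3, with differences of 0.46 to 0.54. It also missed the threshold with quantile normalization within organs (adjusted p 0.00103), spike-in centring (0.0017), the replicate number as a block (0.00191) and each organ fitted on its own (0.00508), and in that last fit rpoA missed it too (0.0039).

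At an adjusted p at or under 0.05, 14 chloroplast genes were higher in replete than in starved roots and 4 were lower, against 12.4% higher and 13.9% lower over the whole array. The higher ones were 6 of the 19 genes of the expression machinery (rpoA, rpl14, rpl22, rpl32, rps3 and rps18) with 0 lower, and 8 of the 43 photosynthetic genes (ndhA, ndhC, ndhI, psaJ, psbF, psbJ, psbL and psbM), with psbB and rbcL lower. Among these, rpoA, rpl14, rpl22 and rps3 share a transcription unit, as do psbF, psbJ and psbL, and ndhA and ndhI. The genes are thus not independent, and the difference between the sets was not tested. The machinery genes had a median of 0.15 and the photosynthetic genes of -0.07, against -0.05 for all probe sets. When arrays were centred on reference genes these 3 medians became 0.265, 0.04 and 0.06. The 2 further genes that were lower, accD (-0.71) and ycf4 (-0.68), belong to neither set. Without root replete 1 they differed by -0.52 (adjusted p 0.1) and -0.65 (adjusted p 0.0551).

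The largest difference among them was that of rpl32, a ribosomal protein gene, with 7.61, 6.47 and 6.39 in replete roots, against 5.81, 5.87 and 5.58 in starved roots (difference 1.07, SE 0.22, adjusted p 0.002). Replete 1 stood more than 1 log2 unit above the other replete arrays, and without it the difference was 0.68. The photosystem II gene psbJ had 7.91, 7.32 and 7.22 in replete roots, against 6.68, 6.31 and 6.72 in starved roots (difference 0.91, SE 0.20, adjusted p 0.00291). Its neighbour psbL had 6.24, 5.06 and 5.09 in replete roots, against 4.63, 4.79 and 4.71 in starved roots, and the difference of 0.75 was 0.37 without replete 1. The same array was the highest of the 3 for ndhA, ndhC and rps3, which differed by 0.46, 0.36 and 0.30 without it. Without replete 1, 13 chloroplast genes were higher at 0.05, 12 of them among the 14, and 2 were lower, against 12.6% and 12.9% of all probe sets. The genes ndhI (adjusted p 0.0545) and rps18 (adjusted p 0.0607) then missed 0.05. Without starved 3, 14 were higher, 13 of them shared, and the same 4 were lower, against 14.2% and 14.4% of all probe sets. The difference of psbM was then 0.42.

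Of the genes that were lower, psbB, the CP47 antenna protein of photosystem II, had 2.73, 2.96 and 3.07 in replete roots, against 3.30, 3.73 and 3.66 in starved roots (difference -0.64, SE 0.13, adjusted p 0.00237). Its values did not overlap, and all lay close to the lower quartile of the arrays. The Rubisco gene rbcL had 5.24, 5.46 and 5.59 in replete roots, against 6.00, 6.09 and 5.75 in starved roots (difference -0.52, SE 0.13, adjusted p 0.00925). Among mitochondrial probe sets, nad9 was higher at 0.05 (0.44), and a nad1 probe set (-0.40) and matR (-0.42) were lower. That nad1 probe set and matR were dim, with means of 2.87 and 2.61 in starved roots, where the lower quartile was 3.57. The value of nad9 was 0.29 without starved 1 (adjusted p 0.157) and 0.37 without replete 3 (adjusted p 0.115). That of matR was -0.37 without replete 1, -0.36 without replete 3 and -0.34 without starved 3, with adjusted p of 0.0524, 0.0764 and 0.0618.

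Of 8 listed nuclear markers of green tissue 3 were measured, and they moved in different directions in the same comparison. LHCB4.1, a light-harvesting protein of photosystem II, rose by 1.23 in replete against starved roots (SE 0.16, adjusted p 4.67e-05). RCA differed by 0.46 (adjusted p 0.0658) and PRK by -0.59 (adjusted p 0.0197). The log2 of the summed values of the 3 markers lay between 7.77 and 8.15 in replete roots, between 6.72 and 7.18 in starved roots and between 7.03 and 7.69 in mock roots, against 14.01 to 14.25 over all shoot arrays. In roots LHCB4.1 was the highest of the 3 and so weighed most in the sum, and PRK was the lowest, at 2.64 to 3.73. The root hair genes EXPA7 and EXPA18 fell by 1.20 and 1.43, while PYK10, the brightest measured root marker, differed by 0.16 (adjusted p 0.427). The log2 of the summed values of the 3 measured root markers, of 6 listed, lay between 12.12 and 12.42 in replete roots, between 12.25 and 12.39 in starved roots and between 12.28 and 12.46 in mock roots. The part of these shifts in the chloroplast values was not tested. The 10 measured nuclear genes of the chloroplast lists ranged from -0.38 to 0.34 in this comparison, with a median of -0.05. Of the 12 on the mitochondrial lists only CYTC-1, a cytochrome c gene, was called (-0.42, adjusted p 0.000828).

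**Figure D3:**
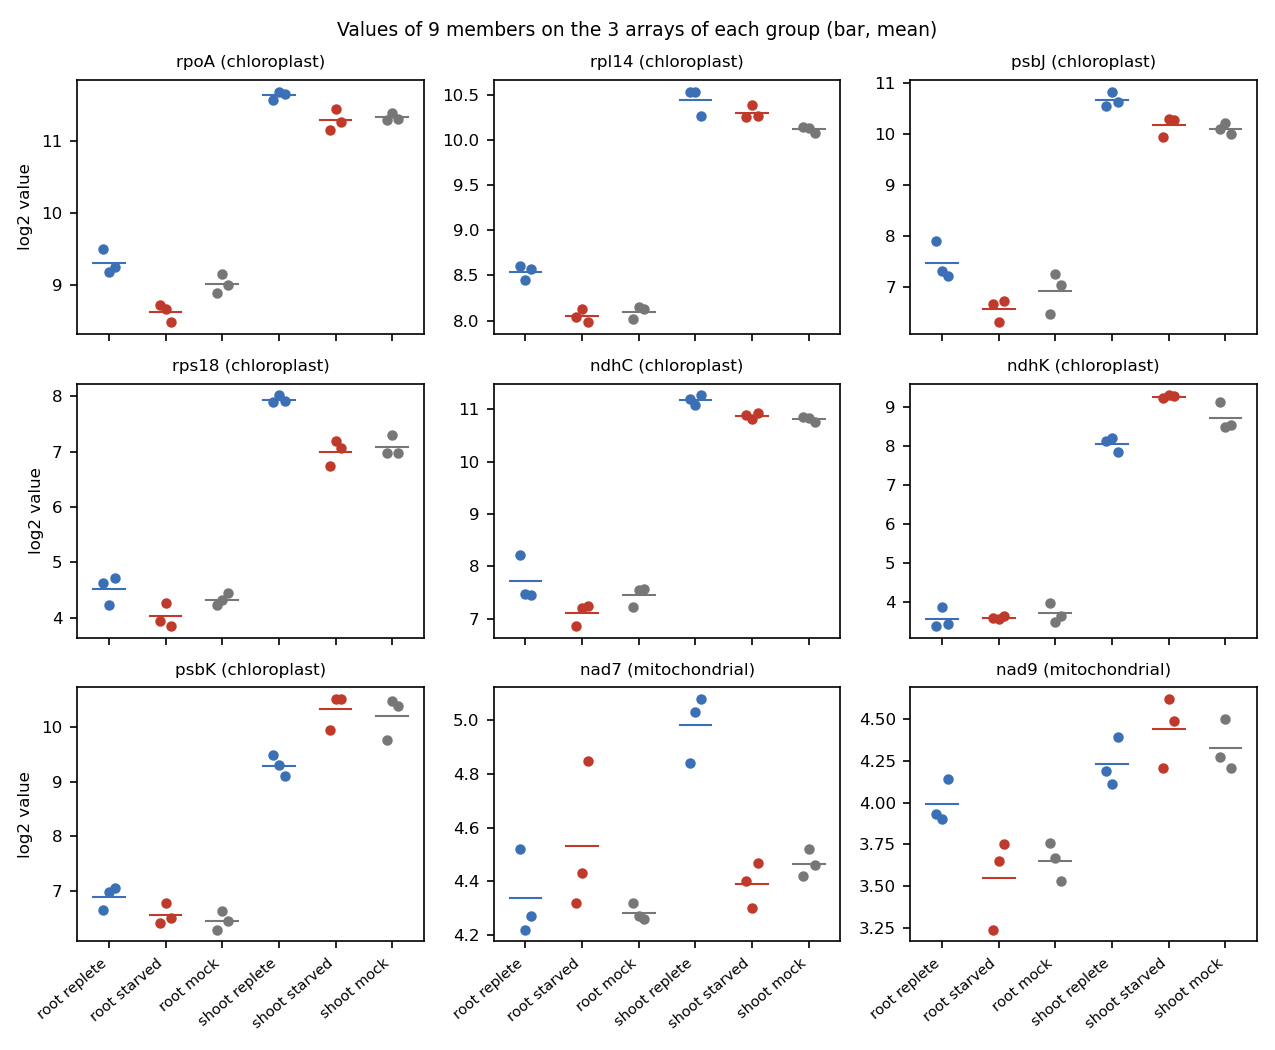
Log2 values on each array of 9 genes (panels) in the 6 groups (horizontal axis), with the group mean as a bar. The replete arrays of rpoA and rpl14 lie above the starved arrays in roots, and those of ndhK and psbK lie below the starved arrays in shoots.

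In shoots more chloroplast genes were lower than higher in recovery. Replete against starved, 1 of 67 chloroplast genes fell, 0 rose and 0 of 22 mitochondrial probe sets were called, with 0.706% of all probe sets called. At an unadjusted p under 0.05 there were 29 and 7, against 23.6% of all probe sets. The gene was ndhK of the NDH complex, with 8.12, 8.19 and 7.85 in replete shoots, against 9.21, 9.29 and 9.27 in starved shoots (difference -1.20, SE 0.17, adjusted p 0.000361, 2.30-fold lower). Mock shoots had 9.11, 8.48 and 8.53, so the replete arrays lay below all others. Leaving out any of the 3 replete arrays, or starved 1 or 2, took the adjusted p of ndhK to between 0.00121 and 0.00296, with differences of -1.27 to -1.10. It also missed the threshold with the replicate number as a block (0.00107) and with each organ fitted on its own (0.00349).

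At an adjusted p at or under 0.05, 14 chloroplast genes were lower and 3 higher in replete than in starved shoots, where 4.72% of all probe sets were lower and 3.97% higher. Of the 43 photosynthetic genes, 11 were lower (ndhK, ndhE, ndhJ, psbK, psbC, psbI, petL, atpF, atpH, psaB and rbcL) and 0 were higher, with 32 differences below 0 and a median of -0.19. Of the 19 genes of the expression machinery, 3 were higher (rps18, rps3 and rpoC2) and rps14 and rpl20 were lower, with a median of 0.08. Among the lower genes, ndhE, petL, rpl20 and rps14 had means below the lower quartile of the arrays in replete shoots. The photosynthetic median stayed between -0.20 and -0.10 and the machinery median between 0.08 and 0.16 under the other scalings. The markers of green tissue differed by -0.38 (PRK), -0.01 (RCA) and -0.06 (LHCB4.1), and their summed level ranged from 14.01 to 14.14 in replete and from 14.16 to 14.25 in starved shoots.

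The low molecular weight photosystem II gene psbK had 9.49, 9.31 and 9.10 in replete shoots, against 9.96, 10.51 and 10.52 in starved shoots (difference -1.03, SE 0.19, adjusted p 0.00349). Mock shoots had 9.77, 10.49 and 10.39, so replete shoots lay below both. The assembly factor gene ycf3 had 6.48, 7.03 and 6.84 in replete shoots, against 7.44, 7.75 and 7.81 in starved shoots (difference -0.88, adjusted p 0.00352). In the opposite direction, rps18, a protein of the small ribosomal subunit, had 7.89, 8.02 and 7.91 in replete shoots, against 6.74, 7.20 and 7.07 in starved shoots (difference 0.94, SE 0.15, adjusted p 0.00121). Its mock values were 6.97, 7.31 and 6.98, below every replete array.

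The count of lower genes in shoots depended on single arrays. It was 5 without starved 2 or without replete 3, 9 without replete 2 and 11 without starved 3, all of them among the 14. The share of all probe sets that was lower also moved in these fits, to 2.17%, 2.77%, 3.16% and 5.58% in that order, from 4.72%. The genes ndhK, ndhJ, psbK, ycf3 and rps14 stayed at or under 0.05 in all 6 fits that left out a replete or starved shoot array, as did rps18 among the higher genes, whereas rps3 did so in 0 of 6. The number of higher genes was 1 without starved 1, starved 3, replete 1 or replete 2, where 1.99%, 3.86%, 2.39% and 2.24% of all probe sets were higher.

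Among mitochondrial genes in shoots, the complex I gene nad7 was higher at 0.05, with 4.84, 5.03 and 5.08 in replete shoots, against 4.40, 4.30 and 4.47 in starved shoots (difference 0.59, SE 0.12, adjusted p 0.00656). Mock shoots had 4.42, 4.52 and 4.46, and the replete arrays lay above both groups. It stayed at or under 0.05 in all 6 fits that left out an array. For nad2, also of complex I, the replete values of 5.26, 5.07 and 5.03 lay above the starved values of 4.67, 4.23 and 4.17 as well (difference 0.76, adjusted p 0.0611).

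Comparing replete with mock, 0 chloroplast and 0 mitochondrial probe sets were called by limma in either organ, where 0.0658% of all probe sets were called in roots and 0.0219% in shoots. At an unadjusted p under 0.05 there were 18 chloroplast and 6 mitochondrial probe sets in each organ, against 18.3% of all probe sets in roots and 18.7% in shoots. At 0.05 after adjustment, reached by 2.86% of all probe sets in roots and 2.75% in shoots, rpl14 (0.44, adjusted p 0.0162), matK (0.50, adjusted p 0.033) and psaJ (0.44) were higher in replete roots. In shoots rpoC2 (0.76, adjusted p 0.0102), rps18 (0.85, adjusted p 0.0124) and nad7 (0.52, adjusted p 0.0349) were higher, and psbK (-0.92, adjusted p 0.0214) and ndhK (-0.65, adjusted p 0.0451) lower. The mitochondrial nad2 had 5.26, 5.07 and 5.03 in replete shoots, against 3.97, 4.20 and 4.43 in mock shoots, without overlap (difference 0.92, SE 0.24, adjusted p 0.0525). The gene rpoC2, a beta-type subunit of the plastid polymerase, had 7.24, 7.19 and 7.07 in replete shoots, against 6.42, 6.27 and 6.53 in mock shoots, without overlap.

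The organs were compared directly through the difference of their changes. No organelle probe set was called, with 0 of 67 and 0 of 22 for the response, where 0.272% of all probe sets were called, and the same for the recovery, where 1.1% were. At an unadjusted p under 0.05 the response had 11 chloroplast and 3 mitochondrial probe sets and the recovery 20 and 6, against 19.6% and 31.1% of all probe sets. At 0.05 after adjustment, reached by 4.34% of all probe sets for the response and 15.7% for the recovery, ndhA differed in the response (root minus shoot -0.72, adjusted p 0.0465). In the recovery 8 chloroplast genes differed, all with the more positive change in roots. They were psbK (1.36, SE 0.27, adjusted p 0.004), ndhK (1.17, SE 0.23, adjusted p 0.004), petL (0.99), psbI (0.75), ndhA (0.61), psaB (0.51), psbF (0.48) and rpl20 (0.39). Of the mitochondrial probe sets, nad7 differed the other way (-0.79, adjusted p 0.00665), and nad9 (0.65) and a nad5 probe set (0.56) differed as psbK did.

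Root and shoot recovery share no arrays, so their values can be set side by side. Across the 67 chloroplast genes they had the same sign for 48, with Pearson's r 0.57 and Spearman's rho 0.59. Across the 22 mitochondrial probe sets the sign matched for 11 (r -0.10, rho 0.04), and across all probe sets r was 0.29 and rho 0.12. For the response the chloroplast values were r 0.34 and rho 0.37 with 43 same signs, the mitochondrial values r 0.02 and rho 0.04, and those of all probe sets r 0.35 and rho 0.13. These are descriptions across genes, which are not independent replicates, and the points share their probes and much of their brightness. At 0.05 in both organs, rps18 and rps3 were higher, rbcL was lower and 0 genes were opposite. Each of these 3 genes rested on single arrays in 1 organ. Of 6 fits that left out an array there, rps18 passed in 2 in roots. In shoots rps3 passed in 0 of 6 and rbcL in 2 of 6, and each gene passed in all 6 in the other organ.

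**Figure D4:**
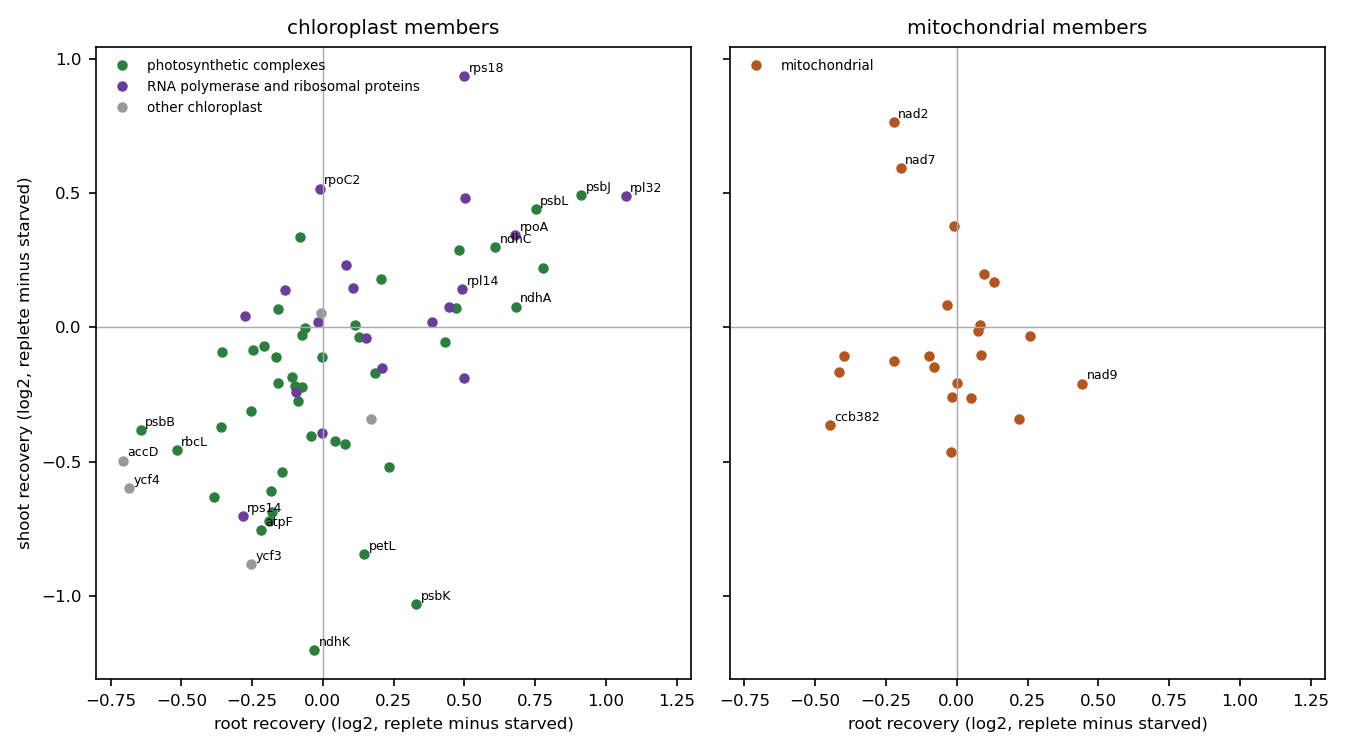
Recovery in roots (horizontal axis) against recovery in shoots (vertical axis), both as log2 replete minus starved, for the chloroplast (left) and mitochondrial (right) probe sets. The chloroplast points run from the lower left to the upper right (r 0.57, n = 67), with psbK (-1.03) and ndhK (-1.20) lowest in shoots, and the mitochondrial points show no slope (r -0.10, n = 22).

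Genes transcribed together did not always have like values. Of the 67 chloroplast genes, 52 fell in 14 known transcription units with more than 1 measured gene. In the ndhC unit, ndhC differed by 0.30, ndhK by -1.20 and ndhJ by -0.54 in shoot recovery, a spread of 1.50 and the widest of the 14 units in that comparison. The 3 replete values of ndhC were 11.19, 11.08 and 11.27, above the starved values of 10.90, 10.81 and 10.93, while those of its neighbours lay below. In roots ndhC differed by 0.61 (0.36 without root replete 1), ndhK by -0.03 and ndhJ by -0.14.

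In the psbE unit of photosystem II, the shoot recovery was -0.17 for psbE, -0.05 for psbF, 0.44 for psbL and 0.49 for psbJ. The root recovery was 0.18, 0.43, 0.75 and 0.91 in the same gene order. Without root replete 1 the root values were 0.15, 0.44, 0.37 and 0.70. In the psaA unit the shoot recovery was 0.34 for psaA, -0.43 for psaB and -0.70 for rps14. Neighbours rpl33 and rps18 had 0.23 and 0.94 in shoots.

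In the atpI unit, which holds ATP synthase genes, rps2, atpI, atpH, atpF and atpA had 0.02, -0.27, -0.69, -0.76 and -0.41 in shoot recovery, and -0.22 to -0.02 in roots. The atpB and atpE genes differed by 0.01 and -0.0033 in shoots. All 7 measured genes of the long ribosomal protein unit had positive root recovery values, with 0.39 for rps19, 0.45 for rpl22, 0.50 for rps3 (0.30 without root replete 1), 0.15 for rpl16, 0.49 for rpl14, 0.21 for rpl36 and 0.68 for rpoA. In shoots the same unit ranged from -0.15 to 0.48. Differences between neighbours were not tested, and each probe set reads its own stretch of the transcript with its own sensitivity.

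**Figure D5:**
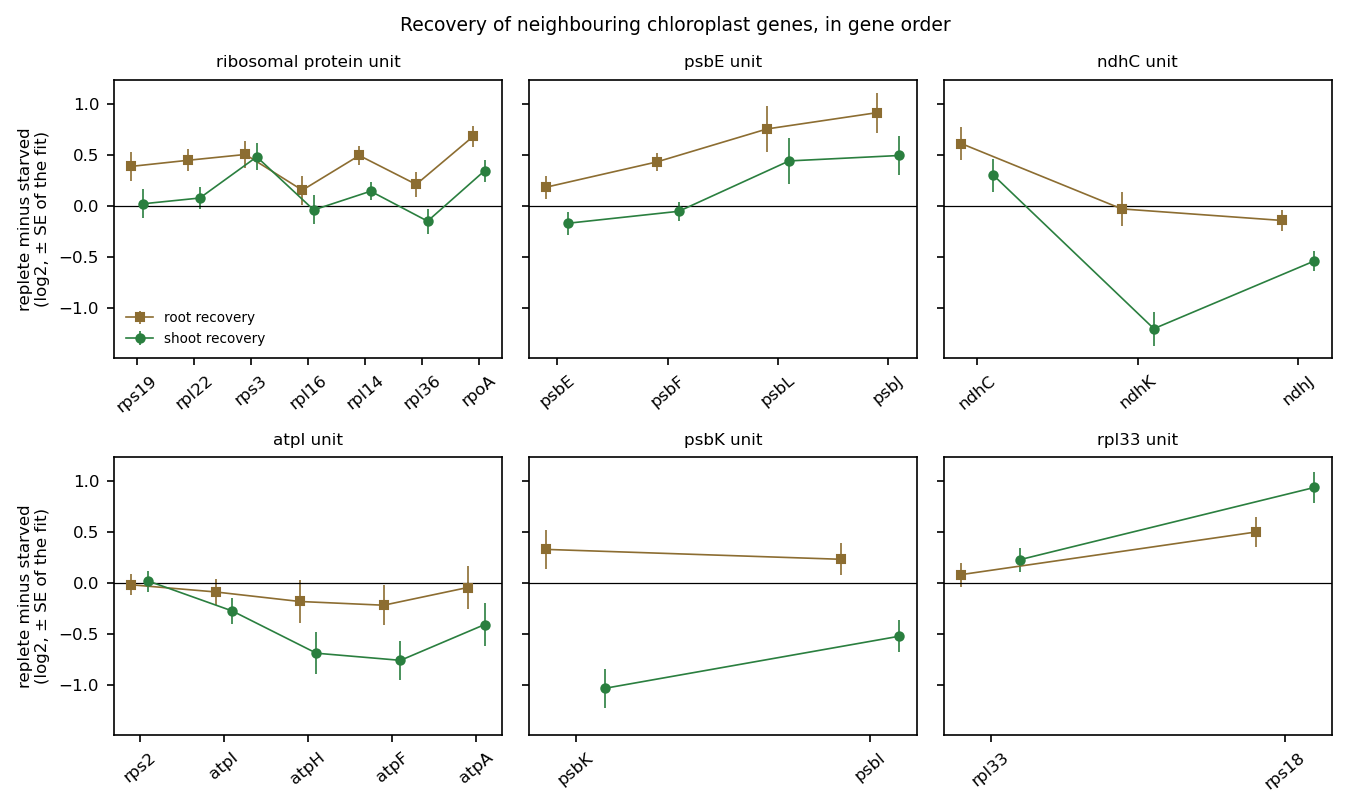
Recovery (log2 replete minus starved, ± SE of the fit) in roots and in shoots of neighbouring chloroplast genes, drawn in gene order within transcription units (panels). In the ndhC unit the shoot values pass from 0.30 to -1.20 between adjacent genes, and in the psbE unit the root values are 0.18 to 0.91.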

How the data were processed

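RNA of 18 samples was hybridized to ATH1 arrays. From the scanned arrays, the authors made the deposited log2 values in R with affy, whose version is not given in the sources used here. Background was corrected, arrays were quantile normalized and probes were summarized by median polish. Quantile normalization sets all arrays to 1 distribution, so values are relative. Scanner files and detection calls were not used here, and with 3 arrays a group precision is limited.

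Of all probe sets, 13513 had 1 gene in the platform table, 503 had several and 8794 had none. The 89 members were found in it by symbol and matched to RefSeq (67 by gene identifier, 22 by symbol or synonym), and 4 carry a suffix that marks probes shared with other sequences (matR, ccb452, nad6 and a nad5 probe set). The members, gene lists and tests were chosen with earlier results of these data known. Genes were named by rule (for each genome and contrast, up to 4 called members per direction or else the 2 of smallest p, the brightest of each functional group, and called list genes). Members at the 0.05 threshold, array values, transcription units and further examples were added after their values were seen. Brightest of their groups were psaB, psbM, petB, ndhI, atpE, rbcL, rpoA, rps4, clpP, nad4, cox1, ccb382 and matR.

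A limma 3.58.1 model with 6 group means was fitted in R 4.3.3 to all 22810 probe sets (12 residual degrees of freedom, 16.5 after moderation) and tested on simulated data. The response is starved minus mock and the recovery replete minus starved. The study names a Bonferroni threshold of 0.001, which was used here only as an alternative to the main threshold. The genes called in recovery, rpoA, rpl14 and ndhK, had unadjusted limma p of 7.61e-06, 4.02e-05 and 1.51e-06. These are too large to pass a Bonferroni threshold of 0.001 over 22810 probe sets. Other scalings, filters, weights and fits, the looser threshold and leaving out each array were alternatives. Same-numbered arrays of a pair of groups deviated together (every correlation over 0.1) only for replete and mock shoots, so the numbers were not used as a block.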

Additional observations from a re-analysis of the deposited data

How the results depend on the processing

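No single-gene result reversed, but many refits left the estimate unchanged and so could not reverse it. Of 1376 refits of 51 single-gene results, 1298 kept direction and side of the threshold, 49 were no longer past it and 29 newly passed. Of 602 refitted counts of members, 534 stayed equal or close and 68 moved further. At an adjusted p at or under 0.05 in place of 0.001, the chloroplast counts were 4 in root response, 18 in root recovery, 3 in roots replete against mock, 1 in shoot response, 17 in shoot recovery, 4 in shoots replete against mock, 1 for the response and 8 for the recovery between organs. The mitochondrial counts were then 3 in root recovery, 1 in shoot recovery, 1 in shoots replete against mock, 13 between organs in mock plants and 3 for the recovery between organs. Of all probe sets, 26.3% passed 0.05 in root recovery, 8.69% in shoot recovery and 59% between organs in mock plants. The 2 chloroplast calls of root recovery became 1 with quantile normalization within organs or spike-in centring, 4 with centring on the 2 reference genes that had a probe set, and 0 with each organ fitted on its own. That last fit also gave 0 for shoot recovery in place of 1. Array weights gave 1 chloroplast call in shoots replete against mock, 1 in recovery between organs, and 11 mitochondrial calls between organs in place of 6. A filter at a mean of 5, which 4 of 22 mitochondrial probe sets passed, gave 3 there.

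With the replicate number as a block within organs, root recovery had 2 chloroplast calls, rpoA and psbB (-0.64, adjusted p 0.000842) without rpl14 (adjusted p 0.00191), shoot recovery had 0, the organs 60, and the mitochondrial organ count was 2. Replete against mock shoots stayed at 0. The deviations of same-numbered replete and starved shoots correlated at 0.45, -0.08 and 0.37 for numbers 1, 2 and 3. So few correlations cannot show that the numbers pair no other groups, and the block fit stands as an alternative to the main counts.

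With reference genes, 7.01% of all probe sets were lower at 0.05 in root recovery and 2.6% in shoot recovery. At 0.05, the 4 lower genes of root recovery became 2 with reference genes and 1 with the filter. In shoot recovery, the 3 higher became 5 with each organ on its own, and the 14 lower became 8 with reference genes, 9 with the filter and 9 with each organ on its own. Leaving out each array gave chloroplast calls of 0 to 1 in root response, 0 to 2 in root recovery, 0 to 2 in shoot recovery and 62 to 63 between organs, and mitochondrial calls of 3 to 8 between organs, with 3 without shoot mock 2 or 3. At 0.05 it gave 11 to 16 higher and 2 to 5 lower genes in root recovery, and 1 to 6 higher and 5 to 15 lower in shoot recovery. Causes were not tested.

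Centring on reference genes moved the median of all probe sets by 0.11 in root recovery, 0.13 in shoots replete against mock and -0.27 between organs, where the chloroplast median was -3.08. Spike-in centring moved it by -0.13 in root response and -0.10 in roots replete against mock.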
